A study of Glycine max with 24 samples.

Results

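A total of 85 soybean genes, of 57105 counted, had higher transcript levels in leaves and lower levels in roots after 6 h of 150 mM NaCl, in both genotypes of the study. They were chosen from the NaCl comparisons themselves. A gene was kept if its mean level in NaCl libraries was at least 1.6-fold that in untreated libraries in both leaf comparisons, and at least 1.6-fold lower in both root comparisons. Levels are given as CPM, the reads of a gene scaled to the total assigned to genes in its library, and 0.5 CPM was added to each group mean before a ratio was taken. The NaCl changes of the 85 genes therefore describe the choice and carry no test. Comparisons of genotype and of tissue, and lists chosen in 1 genotype and read in the other, were tested.

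The study sequenced RNA from leaves and roots of soybean (Glycine max). GmNFYA plants, a transgenic line labelled N3 in the sample titles, were compared with Jack plants, the wild-type cultivar. Each genotype was sampled after 6 h of 150 mM NaCl and untreated at 0 h. Each of the 8 groups held 3 libraries, 24 in all: GmNFYA leaf NaCl, GmNFYA leaf untreated, GmNFYA root NaCl, GmNFYA root untreated, and the same groups of Jack. The labels do not state the transgene's promoter, which NF-YA gene it carries or how many independent lines were used. There was no untreated group at 6 h among the labels, so NaCl and elapsed time cannot be told apart. Replicates are numbered, but the labels do not say that they were separate plants, and p-values measure the spread between these libraries, which may be technical.

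Roots meet salt in the soil first and sense both the osmotic and the ionic side of the stress. Leaves respond to a lowered water supply, to abscisic acid and other long-distance signals, and later to sodium carried up in the xylem, so root and leaf can adjust the same gene in different ways. NF-YA proteins give the NF-Y complex, a regulator of transcription, its contact with CCAAT boxes.

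Genes are given by the number of their ID, such as 02G228100, which is written with the prefix GLYMA_ in the leaf table and Glyma. in the root table. The first digits name the chromosome. No table used here pairs these IDs with gene names, so no function is given for any of them. Levels are not divided by gene length, and levels of different genes are therefore not compared as amounts of transcript.

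Gene counts per library ranged from 17696429 to 21053889 in leaf and from 17005570 to 23459341 in root. To describe the tissues, 116 genes rich in untreated root and 239 rich in untreated leaf were summed in the other tissue. Each had at least 100 CPM in its own untreated tissue and at least 50-fold less in the other. The untreated sums are therefore held low by the choice and do not check the tissue. The root-rich genes summed to 131 to 216 CPM in GmNFYA NaCl leaves and 139 to 211 CPM in GmNFYA untreated leaves, and to 156 to 227 CPM in Jack NaCl leaves and 159 to 199.9 CPM in Jack untreated leaves. The leaf-rich genes summed to 798 to 863 CPM in GmNFYA NaCl roots and 946 to 1180.0 CPM in GmNFYA untreated roots, and to 1465 to 1579 CPM in Jack NaCl roots and 1081 to 1348 CPM in Jack untreated roots. Leaf-rich genes were thus lower with NaCl in GmNFYA roots and higher with NaCl in Jack roots, while the 85 genes were lower with NaCl in roots of both. The part of this in the results was not tested. In bulk tissue, fewer cells of a type and less RNA per cell cannot be told apart.

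The 85 genes were a small share of those that responded in either tissue. The leaf criterion alone was met in both genotypes by 2593 genes and the root criterion alone by 5265. The reverse pattern, higher in root and lower in leaf by the same thresholds, was met by 83 genes. The rule was met in GmNFYA by 357 genes, of which the 85 are 23.8%, and in Jack by 205, of which they are 41.5%. The IDs lay on all 20 chromosomes, with 8 each on chromosomes 15 and 17 and 1 each on chromosomes 4 and 9. The share of a chromosome's IDs ranged from 0.0345% to 0.301%. In 2 cases the IDs were next to each other in number, 15G021700 with 15G021800 and 16G194400 with 16G194500.

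The changes were mostly moderate, and larger in root than in leaf in GmNFYA. The median ratio of NaCl to untreated was 2.3 in GmNFYA leaf, with a range of 1.61 to 25.2, and 2.19 in Jack leaf, with a range of 1.61 to 20.8. In root the median was 2.92-fold lower in GmNFYA, with a range of 1.64 to 64.0, and 2.18-fold lower in Jack, with a range of 1.6 to 65.3. A change of at least 2-fold was seen for 59 genes in GmNFYA leaf, 47 in Jack leaf, 72 in GmNFYA root and 56 in Jack root. All 4 changes were at least 2-fold in 27 genes and at least 3-fold in 6, and in 24 genes the smallest of the 4 was under 1.7-fold.

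**Figure D1:**
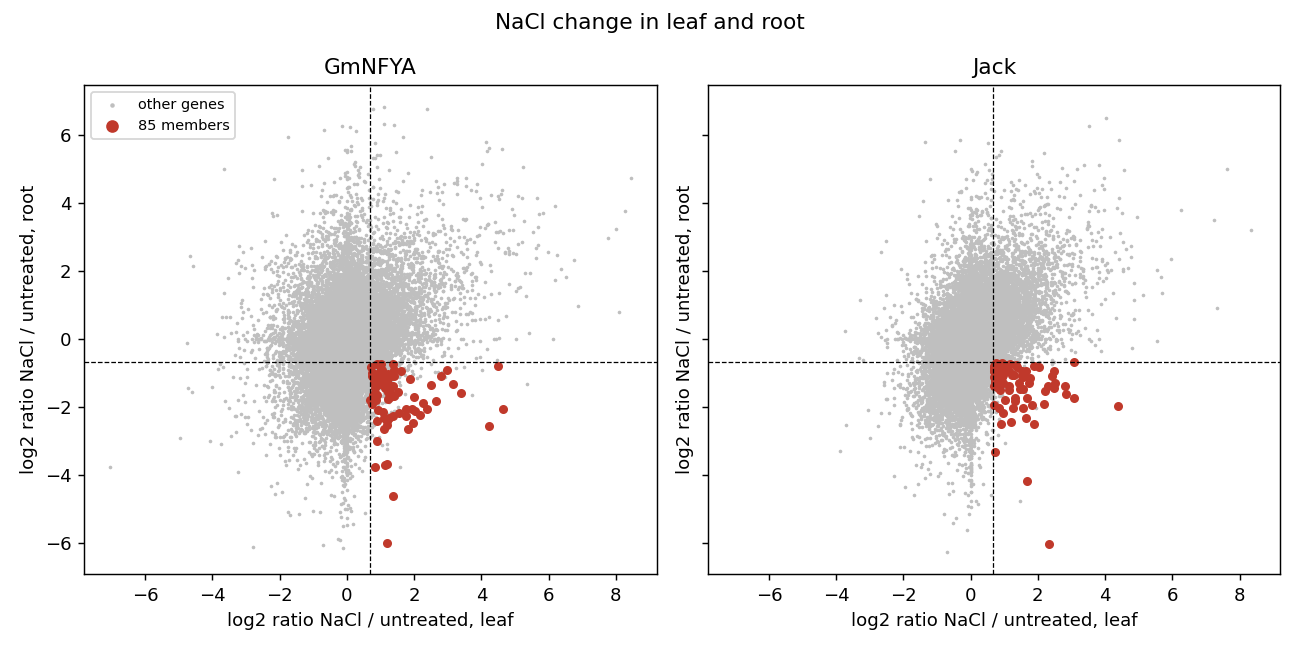
Log2 ratio of NaCl to untreated in leaf (horizontal axis) and in root (vertical axis) for GmNFYA and Jack, from group mean CPM plus 0.5. Red points are the 85 genes, which lie in the lower right corner set by the rule in both panels. Grey points are other genes with at least 240 reads over the 24 libraries. The rule was met by 357 genes in GmNFYA and 205 in Jack, so grey points lie in that corner as well.

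Across the 85 genes, the log2 ratios of GmNFYA and Jack had a Pearson correlation of 0.746 in leaf and 0.788 in root, as a description over genes that share libraries and a threshold. Leaf and root log2 ratios had a Pearson correlation of -0.03 in GmNFYA and -0.23 in Jack, where a negative sign means that a larger rise in leaf went with a larger fall in root. The corresponding Spearman correlations were -0.17 and -0.29. The change was larger in GmNFYA than in Jack for 50 of 85 genes in leaf and for 66 of 85 in root. The rule used these ratios and the share over all genes was not taken, so these counts show no trait of the members. In the interaction test given below, the share of members called in root was near that of all genes.

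The libraries of NaCl and untreated groups did not overlap for 84 of the 85 genes in GmNFYA leaf, 85 in GmNFYA root, 76 in Jack leaf and 83 in Jack root, and in all 4 comparisons for 76. Among the 47571 genes with reads, the same direction without overlap was found for 23.7%, 31.8%, 19.9% and 32% in that order, and for 1.79% in all 4. The rule used these contrasts, so the counts describe the spread within groups and nothing more.

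Summed over the 85 genes, GmNFYA leaves held 4595, 4873 and 4904 CPM with NaCl, against 2639, 1899 and 2132 CPM untreated. Jack leaves held 3705, 3659 and 4376 CPM with NaCl, against 1622, 1168 and 1838 CPM untreated. The sums did not overlap in either genotype, and each was higher with NaCl. GmNFYA roots held 1711, 1703 and 1769 CPM with NaCl, against 6355, 5881 and 5945 CPM untreated. Jack roots held 2169, 1714 and 1704 CPM with NaCl, against 5063, 4864 and 5087 CPM untreated. Untreated roots thus held the largest sums of the 8 groups, and NaCl roots sums near those of untreated leaves. A single gene, 17G230500, made up 14.4% to 47.3% of the group means of these sums.

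The typical member was modestly expressed. The median group mean was 14.2 CPM in GmNFYA NaCl leaf and 4.70 CPM in GmNFYA untreated leaf, and 3.70 CPM in GmNFYA NaCl root and 14 CPM in GmNFYA untreated root. In Jack it was 10.6 CPM in NaCl leaf and 3.24 CPM in untreated leaf, and 3.31 CPM in NaCl root and 9.54 CPM in untreated root. Between 1 and 24 of the 85 genes were below 1 CPM in a given group, with the most in Jack NaCl roots.

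The gene whose smallest change was largest was 02G228100. In GmNFYA leaves it had 60.6, 82.9 and 65.8 CPM with NaCl, against 3.51, 1.47 and 1.87 CPM untreated. In Jack leaves it had 65.2, 54.5 and 114 CPM with NaCl, against 3.37, 4.43 and 2.05 CPM untreated. These were ratios of 25.2 and 20.8, and every NaCl leaf stood above every untreated leaf. In GmNFYA roots it had 138, 167 and 142 CPM with NaCl, against 679.8, 603 and 559 CPM untreated. In Jack roots it had 276, 96.9 and 104 CPM with NaCl, against 650.1, 573 and 653 CPM untreated. Levels were 4.11-fold and 3.92-fold lower with NaCl, and the first Jack NaCl root was more than double the other NaCl roots of Jack. Mean root levels were above mean leaf levels in both states, but with NaCl the highest Jack leaf library lay above the 2 lower Jack root libraries. Genotype made no difference that passed the test in either tissue or state, with adjusted p between 0.491 and 0.84 in edgeR's quasi-likelihood test.

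The next largest smallest change belonged to 20G090500. In GmNFYA leaves it had 28.0, 31 and 17.2 CPM with NaCl, against 5.42, 5.2 and 5.15 CPM untreated. In Jack leaves it had 17.3, 21.4 and 32.6 CPM with NaCl, against 7.79, 4.16 and 6.38 CPM untreated. The leaf libraries of NaCl and untreated groups were apart in both genotypes. In GmNFYA roots it had 2.03, 1.44 and 1.10 CPM with NaCl, against 9.41, 10.3 and 7.15 CPM untreated. In Jack roots it had 0.256, 0.457 and 0.958 CPM with NaCl, against 4.65, 6.12 and 5.55 CPM untreated. Untreated root and leaf were not called different for this gene in either genotype, and NaCl leaves were called higher than NaCl roots in both.

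The highest CPM in NaCl leaves and in untreated roots belonged to 17G230500. In GmNFYA leaves it had 1756, 1978 and 1989.9 CPM with NaCl, against 1279, 872 and 1002 CPM untreated. In Jack leaves it had 1582, 1436 and 1887 CPM with NaCl, against 598, 274 and 777 CPM untreated. Untreated Jack leaves spread almost 3-fold, and yet all were below the NaCl leaves. In GmNFYA roots it had 249.7, 239 and 263 CPM with NaCl, against 861, 879.7 and 869 CPM untreated. In Jack roots it had 289, 265 and 303 CPM with NaCl, against 802, 711 and 865 CPM untreated. The root values were tight within each group, and the NaCl and untreated roots did not overlap.

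The next highest mean over the NaCl leaves of both genotypes was that of 17G258700, although 14G093100 and 14G038200 were higher in GmNFYA alone, with 289 and 286 CPM against its 261 CPM. In GmNFYA leaves it had 276, 182 and 325 CPM with NaCl, against 165, 136 and 141 CPM untreated, and in Jack leaves 383, 169 and 256 CPM with NaCl, against 154, 99.3 and 134 CPM untreated. In roots it had 114, 125 and 110.0 CPM with NaCl, against 239, 260.0 and 209 CPM untreated, in GmNFYA, and 102, 84.3 and 90.8 CPM with NaCl, against 167, 167 and 174 CPM untreated, in Jack. NaCl leaves of this gene varied about 2-fold within a group, and the groups still did not overlap.

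**Figure D2:**
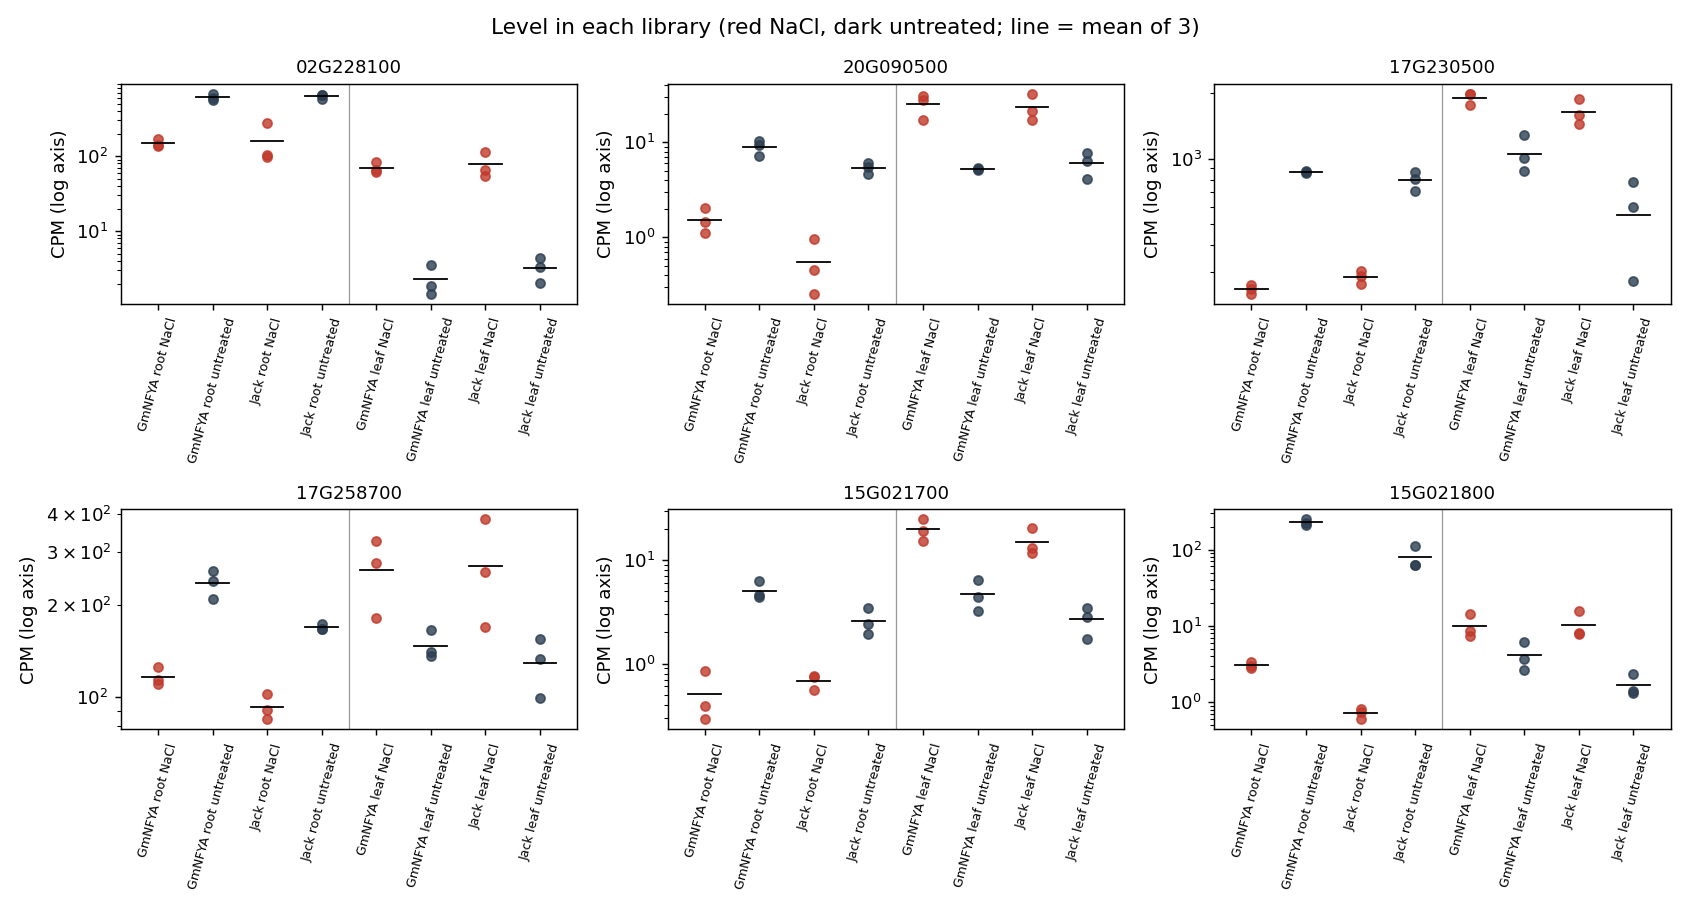
Level in each library of 02G228100, 20G090500, 17G230500, 17G258700, 15G021700 and 15G021800, in CPM on a log axis, with NaCl libraries in red, untreated libraries dark and a line at the mean of 3. In each panel the NaCl roots lie below the untreated roots and the NaCl leaves above the untreated leaves.

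The 2 pairs of adjacent IDs, named for their position after their values were seen, did not change by equal amounts. In GmNFYA roots 15G021800 had 3.38, 2.98 and 2.83 CPM with NaCl, against 224, 210.4 and 248 CPM untreated. In Jack roots it had 0.597, 0.742 and 0.807 CPM with NaCl, against 62.4, 111 and 62.8 CPM untreated. These 64.0-fold and 65.3-fold lower levels were the largest root changes of the 85 genes. GmNFYA was higher than Jack by 1.97 log2 units with NaCl (SE 0.367, adjusted p = 0.00395) and by 1.45 untreated (SE 0.18, adjusted p = 0.000144), by edgeR's quasi-likelihood test. Its neighbour 15G021700 was 5.54-fold lower in GmNFYA and 2.6-fold lower in Jack roots. In leaf, 15G021800 was 2.27-fold higher with NaCl in GmNFYA and 4.99-fold in Jack, and 15G021700 3.9-fold and 4.91-fold. For 16G194400, roots were 1.86-fold lower with NaCl in GmNFYA and 2.46-fold in Jack, and for 16G194500 3.14-fold and 2.34-fold. Whether near-identical copies share reads within a pair was not tested.

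At the edge of the rule lay 07G033500, whose Jack root ratio was closest to the threshold among the members. It was strongly higher in leaf, with a mean of 30.5 CPM with NaCl against 0.870 CPM untreated in GmNFYA, and 12.5 against 1.03 CPM in Jack. Its root levels were near 0, with 0.0190 CPM with NaCl against 0.331 CPM untreated in Jack, so its root change rests on few reads. The added 0.5 CPM largely sets the size of its Jack root ratio, 0.6248, and makes the fall smaller. It was the only member left out of the root tests for low counts. Just outside the rule lay 10G142100, with 4.61 CPM in NaCl roots and 7.68 CPM in untreated roots of Jack. The genes outside the 85 whose log2 levels most resembled the mean profile of the members over the 24 libraries, each tissue centred on its mean, were 18G018800 with a Pearson correlation of 0.964 and 13G290900 with 0.961. The first missed the rule in Jack leaf, with a ratio of 1.58. Members themselves had correlations of 0.643 to 0.973 with that profile, to which they contribute, with a median of 0.902.

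The pattern was then read in libraries that had not chosen it. Genes that met the rule in Jack were tested with edgeR's quasi-likelihood test in the 6 GmNFYA libraries of a tissue, and the reverse. Of the 205 genes chosen in Jack, 194 were tested in GmNFYA leaf and 125 of them, or 64.4%, rose with NaCl at a Benjamini-Hochberg adjusted p under 0.05, against 22.4% of all genes tested. A further 13 fell there, a count given without the share of all genes, so nothing is read from it. Calls against the rule's direction in the other fits are not given here. In GmNFYA root 173 of 201 tested, or 86.1%, fell, against 29.4% of all genes. Of the 357 genes chosen in GmNFYA, 132 of 331 tested in Jack leaf, or 39.9%, rose, against 12.7% of all genes. In Jack root 209 of 334 tested, or 62.6%, fell, against 26.7% of all genes. Both lists thus held a larger share of calls in the direction of the rule than all genes did, in both tissues. Without the first untreated Jack leaf the 132 became 83, and without the second NaCl Jack leaf 87.

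Leaving one replicate number out of all groups, choosing genes by the rule from the other libraries and reading them in those left out gave 93, 77 and 79 genes for replicates 1, 2 and 3. The left-out libraries changed in the direction of the rule in all 4 comparisons for 88, 69 and 75 of these, or 94.6%, 89.6% and 94.9%. Among all 47571 genes with reads the same was found for 9.07%, 10.2% and 13.1%. The 1.6-fold thresholds themselves were met in the left-out libraries by 33 of the 93, 41 of the 77 and 42 of the 79 chosen genes. Among all genes with reads they were met by 0.128%, 0.28% and 0.187%. The left-out libraries belong to the same groups and may be technical replicates, so these shares describe the spread between libraries. They do not separate NaCl from elapsed time.

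Most of the 85 genes had group means that were root-high without salt and leaf-high with it. The test given further below called both differences in both genotypes for 23 of the 85, against 0.538% of all genes, an order that the rule favours. By group means, the root level was above the leaf level for 20 genes with NaCl and 74 untreated in GmNFYA, and for 20 with NaCl and 67 untreated in Jack. The order of the tissues turned for 54 genes in GmNFYA and 47 in Jack. The median ratio of root to leaf was 0.313 with NaCl and 3.43 untreated in GmNFYA, and 0.363 with NaCl and 3.13 untreated in Jack. Among all genes with reads, root was above leaf for 52.0% with NaCl and 58.8% untreated in GmNFYA, and for 50.1% with NaCl and 59.3% untreated in Jack. That the ratio is lower with NaCl follows from the rule, which also favours genes detected in untreated root and NaCl leaf, so the position of the ratio in each state is partly set by the choice and is a description.

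In edgeR's quasi-likelihood test over both tissues, 56 of the 85 genes were higher and 10 lower in untreated GmNFYA root than leaf at an adjusted p under 0.05. Of all genes tested, 36.7% were higher and 34.2% lower. In NaCl plants of GmNFYA, 13 were higher and 59 lower in root, against 35.5% and 33.9% of all genes. In untreated Jack, 53 were higher and 14 lower in root, against 36.2% and 33.7% of all genes. In NaCl plants of Jack, 13 were higher and 61 lower in root, against 34.4% and 35.5%. These libraries are those that chose the genes, so nothing is read from these counts. Lists chosen in the other genotype used none of the libraries compared, but the fit shares its dispersions with the libraries that chose them. The rule also favours genes detected in untreated root and NaCl leaf, which can carry over between genotypes. The shares that follow are therefore a description as well. Of the 205 genes chosen in Jack, 66.3% were higher and 15.6% lower in untreated GmNFYA root, and 23.9% higher and 52.7% lower in NaCl root. Of the 356 tested genes chosen in GmNFYA, 54.8% were higher and 26.7% lower in untreated Jack root, and 22.8% higher and 53.1% lower in NaCl root.

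Tissue and salt divided the members into a few patterns. In both genotypes, 23 of the 85 genes were called root-high untreated and leaf-high with NaCl, against 0.538% of all genes, an order that the rule favours. Root was called higher in both states and genotypes for 11 genes, against 21.2% of all genes, and leaf for 9, against 22.9%. The largest difference in untreated plants was that of 02G228100, among the 11 that stayed root-high. It was 7.73 log2 units higher in untreated GmNFYA root than leaf (SE 0.463, adjusted p = 9e-12, edgeR's quasi-likelihood test) and 7.24 higher in untreated Jack root (SE 0.447, adjusted p = 1.47e-11). With NaCl the difference was 0.98 in GmNFYA (adjusted p = 0.013) and 0.95 in Jack (adjusted p = 0.0163).

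Another gene with high root levels was 06G082000. It had 195, 209 and 193 CPM in untreated GmNFYA root, against 1.51, 2.32 and 1.31 CPM in untreated GmNFYA leaf, a log2 difference of 6.54 (SE 0.205, adjusted p = 7.75e-18, edgeR's quasi-likelihood test). The highest root to leaf differences with NaCl were those of 11G058100 and 15G142400. In GmNFYA they were 3.70 and 3.02 log2 units, and in Jack 4.06 and 4.20. For 15G142400, NaCl roots of Jack had 228, 253 and 176 CPM, against 20.2, 7.10 and 6.80 CPM in NaCl leaves. Both genes were root-high in NaCl plants of both genotypes.

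At the other end, 14G038200 was leaf-high throughout. In GmNFYA it had 53.2, 42.1 and 40.0 CPM in untreated root, against 203, 133 and 151 CPM in untreated leaf, a log2 difference of -2.17 (SE 0.202, adjusted p = 2.87e-09, edgeR's quasi-likelihood test). In untreated Jack the most leaf-high genes among those called, whose log2 CPM averaged 2 or more and whose groups did not overlap, were 13G084000, at -3.68, and 02G253900, at -2.67. With NaCl, 13G084000 had 0.0426, 1.20 and 0.857 CPM in Jack root, against 63.5, 115 and 104 CPM in Jack leaf, a log2 difference of -7.25 (SE 0.459, adjusted p = 2.86e-11). The largest such differences in GmNFYA with NaCl, within the same limits, were those of 15G021700, at -5.39, and 03G173700, at -4.70.

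**Figure D3:**
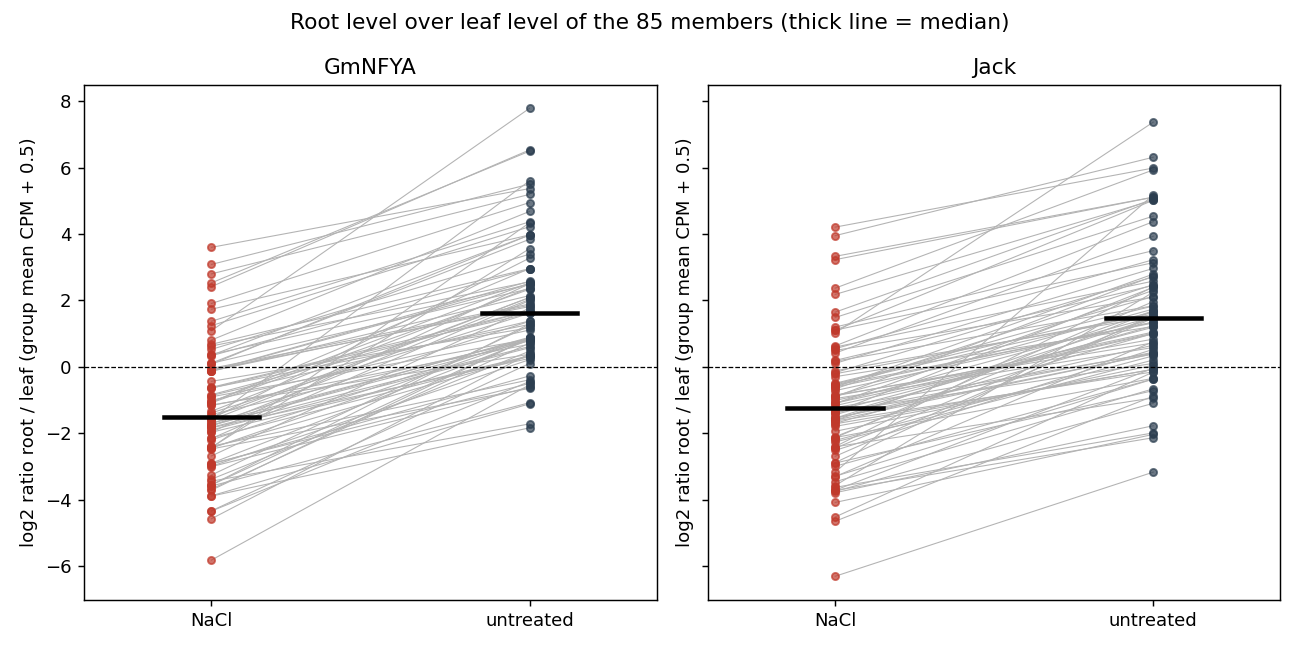
Log2 ratio of root to leaf level for each of the 85 genes with NaCl and untreated, in GmNFYA (left) and Jack (right), with a thick line at the median. The medians lie below 0 with NaCl and above 0 untreated in both genotypes.

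Genotype calls among the members were most numerous in untreated roots. There, 31 of the 84 members tested, or 36.9%, were higher in GmNFYA than in Jack and 3, or 3.57%, were lower, by edgeR's quasi-likelihood test at an adjusted p under 0.05. Of all genes tested, 10.7% were higher and 12.6% lower. The median log2 difference was 0.50 over the members and 0.01 over all genes, and 71 members had a positive one. In NaCl roots 11 members were higher and 8 lower, against 7.05% and 9.9% of all genes, with medians of 0.07 and -0.02. Without the first or the second NaCl GmNFYA root, 12 members were called in place of 19. Of these, 8 were higher and 4 lower without the first, and 9 higher and 3 lower without the second. Without the third, 10 were higher and 3 lower. The split was 13 and 3 without the first NaCl Jack root, and 11 and 7 without the second. Over all genes, 2567 were called higher and 3601 lower with all libraries, and 1665 and 2203 without the first NaCl GmNFYA root. These calls were 1654 and 2232 without the second and 1560 and 2358 without the third. They were 2359 and 3855 without the first NaCl Jack root, and 1587 and 2345 without the second. In untreated roots members were thus called higher in GmNFYA far more often than lower. With all libraries the calls in NaCl roots were closer to even, but that split depended on single libraries. All genotype comparisons, here and in leaf, use libraries that chose the genes. The rule also favours genes detected in untreated root, so these shares of members are a description. Reads with more than 1 alignment, which count for no gene, made up 5.19% to 5.88% in untreated GmNFYA roots and 9.24% to 10.3% in untreated Jack roots, and their part in this difference was not tested.

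In leaf, fewer members were called. Untreated, 6 of 85 were higher in GmNFYA and 3 lower, against 2.3% and 2.21% of all genes. With NaCl, 12 were higher and 1 lower, against 3.65% and 5.95% of all genes. The median log2 difference was 0.24 with NaCl and 0.15 untreated, against -0.01 over all genes in both. The untreated count was the less firm of these, and was 4 without the first or without the third untreated GmNFYA leaf and 5 without the second NaCl GmNFYA leaf or the first untreated Jack leaf. Calls over all genes also fell, from 810 higher and 780 lower to 288 and 223 without the first untreated GmNFYA leaf. Without the third they were 308 and 239, without that NaCl leaf 653 and 612, and without that Jack leaf 350 and 410. Over both tissues and states, 51 of the 85 genes had at least 1 genotype call, against 37.6% of all genes. Both root states were called higher in GmNFYA for 10 genes, against 2.37% of all genes tested in root, both leaf states for 5, against 0.701% in leaf, and all 4 for 1, against 0.162%.

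**Figure D4:**
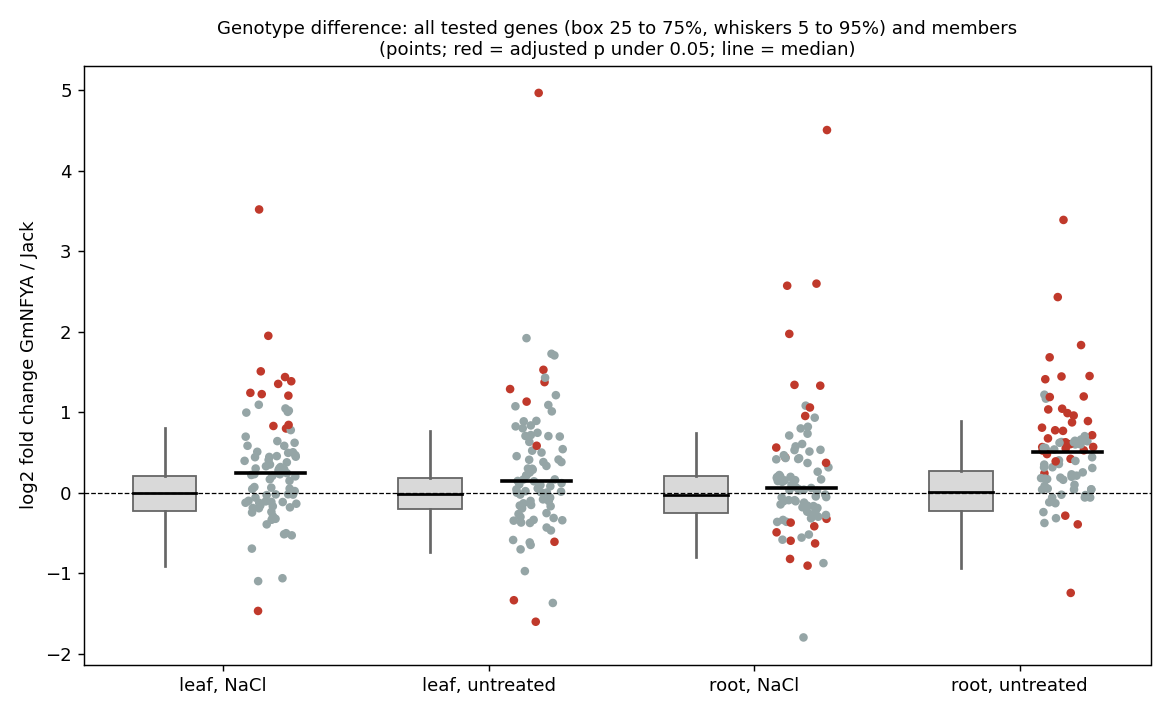
Log2 fold change of GmNFYA over Jack in each tissue and state, with members as points (red where the adjusted p was under 0.05, line at the median) beside a box of all genes tested (25 to 75%, whiskers 5 to 95%). The members' median in untreated root is 0.50, against 0.01 over all genes.

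The gene higher in GmNFYA in all 4 comparisons was 06G123200. In untreated roots it had 57.2, 50.2 and 56.2 CPM in GmNFYA, against 8.26, 11.5 and 8.82 CPM in Jack, a log2 difference of 2.43 (SE 0.142, adjusted p = 1.36e-08, edgeR's quasi-likelihood test). In NaCl roots it had 2.17, 1.59 and 1.54 CPM in GmNFYA, against 0.0853, 0 and 0.101 CPM in Jack. That difference of 4.51 (SE 0.429, adjusted p = 6.93e-06) rests on 4 reads over the 3 Jack libraries. Leaves had 11.2, 11.9 and 11.8 CPM in GmNFYA with NaCl, against 4.82, 9.06 and 4.70 CPM in Jack with NaCl. GmNFYA libraries were above Jack libraries in each case, with no overlap.

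The largest genotype difference among named genes in untreated root was that of 06G174800. It had 67.4, 63.0 and 41.4 CPM in GmNFYA, against 5.69, 2.70 and 6.77 CPM in Jack, a log2 difference of 3.39 (SE 0.307, adjusted p = 2.28e-05, edgeR's quasi-likelihood test). With NaCl it had 3.33, 3.47 and 5.47 CPM in GmNFYA roots and 3.41, 2.28 and 2.32 CPM in Jack roots, which overlapped. The genotypes were thus far apart before salt and close after it.

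Lower in untreated GmNFYA roots were 11G058100 and 05G135000. The first had 71.5, 67.5 and 84.4 CPM in GmNFYA, against 192, 156 and 148 CPM in Jack, a log2 difference of -1.24 (SE 0.271, adjusted p = 0.0088, edgeR's quasi-likelihood test). For 05G135000 the difference was -0.39 (adjusted p = 0.0179), and the adjusted p was 0.0656, 0.0718 and 0.0828 without the first or second GmNFYA or the second Jack untreated root. In NaCl roots 15G142400, at -0.90 (adjusted p = 0.0162), and 11G228000, at -0.82 (adjusted p = 0.00281), were lower in GmNFYA. For 15G142400 the adjusted p was 0.0618 without the second GmNFYA NaCl root and 0.0575 without the second Jack NaCl root.

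Opposite genotype differences in the tissues were found for 13G084000. In NaCl roots it had 5.41, 2.88 and 4.80 CPM in GmNFYA, against 0.0426, 1.20 and 0.857 CPM in Jack, a log2 difference of 2.60 (SE 0.557, adjusted p = 0.00984, edgeR's quasi-likelihood test). In NaCl leaves it had 40.4, 39.9 and 27.8 CPM in GmNFYA, against 63.5, 115 and 104 CPM in Jack, a difference of -1.47 (SE 0.244, adjusted p = 0.0041). GmNFYA was the higher genotype in root and the lower in leaf, with no overlap in either. The difference between the tissues was not tested.

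In NaCl leaves, among called genes within the same limits, the largest differences in favour of GmNFYA were those of 03G040600 and 13G149100. For 03G040600, GmNFYA had 74.4, 90.6 and 106 CPM, against 12.6, 18.7 and 35.2 CPM in Jack, a log2 difference of 1.95 (SE 0.309, adjusted p = 0.00362, edgeR's quasi-likelihood test). For 13G149100, GmNFYA had 194, 212 and 129 CPM, against 51.5, 70.6 and 56.6 CPM in Jack, a difference of 1.51 (SE 0.192, adjusted p = 0.000596). Both were also called untreated, where 03G040600 differed by 1.38 (adjusted p = 0.0385).

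In untreated leaves the largest difference among called genes within these limits was that of 19G047800, with 6.03, 5.76 and 6.01 CPM in GmNFYA, against 2.23, 2.40 and 1.22 CPM in Jack, a log2 difference of 1.53 (SE 0.278, adjusted p = 0.00994, edgeR's quasi-likelihood test). Lower in GmNFYA were 11G228000, at -1.60 (adjusted p = 0.035), and 19G089800, at -1.33 (adjusted p = 0.0453). Of 17 alternative fits, 03G040600 missed the threshold in 8, 11G228000 in 7 and 19G089800 in 12, with adjusted p up to 0.131, 0.146 and 0.169. The calls of these 3 genes in untreated leaf are therefore not firm.

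Whether salt changed a member by a different amount in GmNFYA and Jack was tested as an interaction. The rule bounds both changes on one side but not their difference. In root, 2 of the 84 members tested had a smaller and 6 a larger fall in GmNFYA, against 4.28% and 4.01% of all genes, by edgeR's quasi-likelihood test at an adjusted p under 0.05. The number called was 4 or 5, in place of 8, without any 1 of the 6 GmNFYA root libraries or the first or second untreated Jack root. In those fits 1103 to 1497 of all genes had a called positive interaction, in place of 1557. A called negative one was found for 937 to 1253, in place of 1461. With all libraries, 8.29% of all genes were called in either direction, a share near that of the members. The median interaction in root was -0.30 over the members and -0.01 over all genes, and in leaf 0.06 and -0.002. The rule used these libraries, so the medians are a description. In leaf 1 of 85 was called, a larger rise in GmNFYA, against 0.781% of all genes in that direction and 2.45% in either. The leaf count was 3 without the second NaCl, the second untreated or the third untreated Jack leaf, and 2 without the first NaCl Jack leaf. In those fits 289 to 497 of all genes were called in that direction, in place of 275. Of the 85 genes, 33 had no genotype or interaction call in either tissue, against 61.9% of all genes.

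A larger fall in GmNFYA root was found for 06G174800, with an interaction of -2.92 on the log2 scale (SE 0.481, adjusted p = 0.00399, edgeR's quasi-likelihood test), from the values given above. For 14G093100 it was -1.16 (SE 0.148, adjusted p = 0.00017). GmNFYA roots of that gene had 50, 50.1 and 57.7 CPM with NaCl, against 295, 283 and 257 CPM untreated, and Jack roots 77.4, 65.4 and 74.5 CPM with NaCl, against 157, 206 and 167 CPM untreated. Its untreated level was higher and its NaCl level lower in GmNFYA, with no overlap in either state. For 06G123200 the interaction was 2.07 (SE 0.546, adjusted p = 0.0274), with the few Jack reads named above. Its fall was 30.9-fold in GmNFYA and 154-fold in Jack from the means themselves, but 24.3-fold and 17.9-fold with 0.5 CPM added, so the direction depends on that addition. The adjusted p was 0.0548 without the first GmNFYA NaCl root and 0.0939 without the second Jack NaCl root.

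The leaf interaction was that of 15G067700. GmNFYA leaves had 46.1, 43.3 and 42.0 CPM with NaCl, against 16.2, 16.2 and 16.1 CPM untreated, and Jack leaves 23.1, 24.2 and 22.3 CPM with NaCl, against 13.9, 13.6 and 13.7 CPM untreated. The rise was larger in GmNFYA by 0.70 on the log2 scale (SE 0.12, adjusted p = 0.0124, edgeR's quasi-likelihood test). Replicates of this gene were close in every group, and it kept its call in all 16 alternative fits.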

How the data were processed

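Raw counts per gene, as whole numbers, were deposited for leaf and for root in separate tables. The submitters' processing notes name HISAT2, featureCounts and DESeq2, with neither role nor version. The sources used here do not give genome build, annotation or strand setting. Rows of reads assigned to no gene, 5 per table, held 18.8% to 24.5% of reads in leaf and 21.8% to 29.2% in root and were left out. None of the IDs matched the RefSeq gene table, so no sequences or functions are given.

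CPM was computed from column sums. Tests used edgeR 4.0.16 in R 4.3.3: filterByExpr with a minimum count of 10 (35222 genes in leaf, 36390 in root), TMM scaling, robust quasi-likelihood F tests with the 4 groups of a tissue sharing dispersions, all 24 libraries for root over leaf, and Benjamini-Hochberg adjustment over all genes tested. Tests were run on simulated counts with the same dispersion for every gene and changes placed only in genes above a minimum mean count. That check does not cover genes of low count or uneven spread between libraries. DESeq2 1.42.0 was an alternative. No libraries of a group were identical. The labels do not say what a replicate number marks. Same-numbered NaCl leaves of GmNFYA and Jack deviated together (correlations 0.117, 0.183 and 0.256), and a fit with the number as a block changed no named call in that comparison.

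Members and lists were chosen with earlier results of these data known. Genes were named, at most 2 per direction and comparison, by largest smallest NaCl change, highest level, or largest fold change among called members whose log2 CPM averaged 2 or more and whose groups, interactions aside, did not overlap. Root over leaf for lists chosen in the other genotype, the adjacent IDs and the left-out replicate numbers were added after seeing the data.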

Additional observations from a re-analysis of the deposited data

Results flagged for a closer look

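Results stand here because the NaCl change differed between GmNFYA and Jack by the interaction test of edgeR's quasi-likelihood method. In root, 8 of the 84 members tested passed an adjusted p of 0.05, against 8.29% of all genes, a share near the background, and 4 or 5 passed when any of 8 single libraries was left out. Calls over all genes fell in those fits as well. Of the named ones, 06G174800 had an interaction of -2.92 and 14G093100 of -1.16 on the log2 scale, a larger fall in GmNFYA, and 06G123200 had 2.07, which rests on few Jack reads. In leaf 1 of 85 members passed, against 2.45% of all genes. It was 15G067700, with 0.70, a larger rise in GmNFYA.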

How the results depend on the processing

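With 0.1 CPM added the rule gave 140 genes in place of 85, with 1 CPM 63, with ratios of 2 and 0.5 it gave 27, with 1.3 it gave 402, and with TMM-scaled or RLE-scaled CPM 56. TMM scaling shifted the median log2 NaCl change by 0.12 in GmNFYA and 0.16 in Jack root, and all 85 genes kept their direction, the smallest change then being 1.46-fold. Leaving out 1 library or replicate number gave 77 to 93 genes. Of 77 other recomputed counts, 66 stayed within 1.5 times, and none of 783 values of named genes reversed, 34 missing the threshold. The cause of these moves was not tested.

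DESeq2 called 15 members for genotype in untreated leaf, in place of 9, and 5 for the leaf interaction, in place of 1; RLE factors and no low-count filter called 2. Leaving out 1 library gave 4 to 11 for untreated leaf, 9 to 18 for NaCl leaf, 1 to 3 for the leaf interaction, 23 to 45 for untreated root, 12 to 18 for NaCl root (12 without the first or second GmNFYA NaCl root) and 4 to 9 for the root interaction. Calls over all genes changed in the same fits. Root over leaf gave 61 to 75 in all. The lists chosen in Jack gave 109 to 131 in GmNFYA leaf and 165 to 171 in root, and those chosen in GmNFYA 83 to 135 in Jack leaf and 181 to 212 in root.

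Same-numbered libraries correlated at -0.0617 to 0.296 (leaf) and -0.249 to 0.193 (root), and 6 of 12 leaf and 0 of 12 root libraries were most like their own number. The numbers did not pair the libraries in all comparisons, but the 3 same-numbered NaCl leaves of GmNFYA and Jack all correlated over 0.1, and the leaf values are a hint from the data, not the design, that numbers may be shared there. With a replicate block, NaCl leaf had 14 calls in place of 13, untreated leaf 14 in place of 9 and the leaf interaction 4 in place of 1, of which 3 were lower; the other counts stayed within 1.5 times. Genes below 1 CPM, up to 24 members in a group, limit precision.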

Other observations

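The gene with the largest genotype difference in leaf, 10G296400, was under the level minimum for named genes and was picked after its values were seen. It had 13.2, 12.5 and 11.9 CPM in GmNFYA NaCl leaves, against 0.434, 1.05 and 1.64 CPM in Jack NaCl leaves. In untreated leaves it had 1.15, 0.509 and 0.555 CPM in GmNFYA and 0, 0.0534 and 0 CPM in Jack, a single read over the 3 Jack libraries. GmNFYA and Jack did not overlap in either state.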
